A study of Homo sapiens with 14 samples.

Results

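LS and NGP are 2 established human neuroblastoma cell lines in which MDM2 and CDK4, genes of the long arm of chromosome 12 (12q), are known to be amplified together with MYCN. They were set against 3 other lines with a known MYCN amplification, SK-N-BE(2)C, IMR32 and SK-N-DZ, within a series of 14 neuroblastoma lines. The lines were chosen by their own levels: a line entered the MDM2 and CDK4 group with over 500 CPM of MDM2 and over 1000 CPM of CDK4, where CPM is the gene's count scaled to a library total shared by all lines. Both genes, and the genes beside them on 12q, are therefore described without a test. The labels give each line by name only, as a cell line of neuroblastoma tissue grown in RPMI1640 or DMEM with serum. They state no treatment, passage, genotype or copy number, so the amplification of MYCN, MDM2 and CDK4 is background knowledge on these lines. Each line is 1 library, so the spread between lines of a group holds both line identity and any technical difference. The series concerns telomere damage and checkpoint blockade, and its labels do not state the present comparison. The other 9 lines, among them IMR5-75, a subclone of IMR32 that also carries amplified MYCN, are quoted only for orientation.

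MDM2 is a ubiquitin ligase that binds p53, blocks it as an activator of transcription and marks it for degradation, and MDM2 is itself a target of p53. CDK4 is the kinase that, with a D-type cyclin, phosphorylates the retinoblastoma protein RB1 and frees E2F factors to switch on genes of DNA replication. Both lie on 12q, where a segment can be amplified in sarcomas, gliomas and some neuroblastomas and takes neighbouring genes along. MYCN, on the short arm of chromosome 2, is the amplified oncogene of high-risk neuroblastoma and binds the E-box CACGTG with its partner MAX.

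Because MYCN was high in all 5 lines, the sequence upstream of the 2 genes that define the group is shown with that E-box in capitals, in the orientation of the gene and up to the base before the start site in RefSeq (GRCh38.p14). CDK4 lies on the minus strand (chr12:57752311-57752560) and MDM2 on the plus strand (chr12:68807922-68808171, the most upstream of 4 start windows listed for it).
CDK4: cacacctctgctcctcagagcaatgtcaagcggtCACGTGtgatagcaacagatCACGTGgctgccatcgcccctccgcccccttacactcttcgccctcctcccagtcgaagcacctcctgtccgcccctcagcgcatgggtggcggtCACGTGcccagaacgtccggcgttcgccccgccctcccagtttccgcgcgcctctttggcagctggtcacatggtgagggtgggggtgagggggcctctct
MDM2: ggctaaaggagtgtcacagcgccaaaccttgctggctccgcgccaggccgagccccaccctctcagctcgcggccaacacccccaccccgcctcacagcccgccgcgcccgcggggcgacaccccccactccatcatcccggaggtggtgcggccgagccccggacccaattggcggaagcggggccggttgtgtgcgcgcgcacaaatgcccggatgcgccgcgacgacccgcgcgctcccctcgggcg
The 250 bases before the CDK4 start held the motif 3 times, beginning 216, 196 and 101 bases before the start. None of the 4 MDM2 windows held it. The motif is its own reverse complement, so a search of 1 strand covers both. Of the 23 genes of 12q raised in both lines (described below by their values), 16 had an entry, and 2 of these (12.5%), CDK4 and TUBA1C, held the motif in at least 1 window. It was present for 1392 of 13232 measured genes with an entry (10.5%). A match is a description of the letters and shows no binding.

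The 5 libraries held from 35909298 counts in NGP to 58644013 counts in LS over 20049 gene symbols, and 3 counts, the limit that a count of 0 allows, stood for 0.0514 CPM in LS to 0.0807 CPM in NGP. These limits hold counting error and nothing else. The mitochondrial share of counts was 3.44% in LS, 8.0% in NGP and 4.56% to 10.9% in the comparison lines. Chi-square per gene was at least 298 for every pair of the 5 libraries, so no library was a copy of another. The neuroblastoma identity is taken from the labels. HAND2, a transcription factor of the sympathetic lineage, was at 505 to 737 CPM in the 5 lines. It is 1 of 18 listed markers of the sympathoadrenal state. LS held the lowest of the 5 levels for 12 of the 17 tested outside 12q.

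MDM2 was at 4090 CPM in LS and 922 CPM in NGP. Among the comparison lines SK-N-BE(2)C held 81.5 CPM, IMR32 216 CPM and SK-N-DZ 137 CPM. Of all 14 lines the next below NGP was SK-N-SH at 318 CPM, so the rule's limit of 500 CPM fell in a gap. CDK4 was at 1206 CPM in LS and 1608 CPM in NGP, and at 189 CPM in SK-N-BE(2)C, 230 CPM in IMR32 and 224 CPM in SK-N-DZ. The next line was Lan-6 at 517 CPM, again well below the limit of 1000 CPM. The order of the 2 lines was opposite for the 2 genes: LS held more MDM2 and NGP more CDK4. MYCN did not follow either of them. It was at 949 CPM in LS and 1177 CPM in NGP, under the 2245 CPM of SK-N-BE(2)C, the 1442 CPM of IMR32 and the 1209 CPM of SK-N-DZ. The MYCN levels of the groups did not overlap, although NGP and SK-N-DZ were close.

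**Figure D1:**
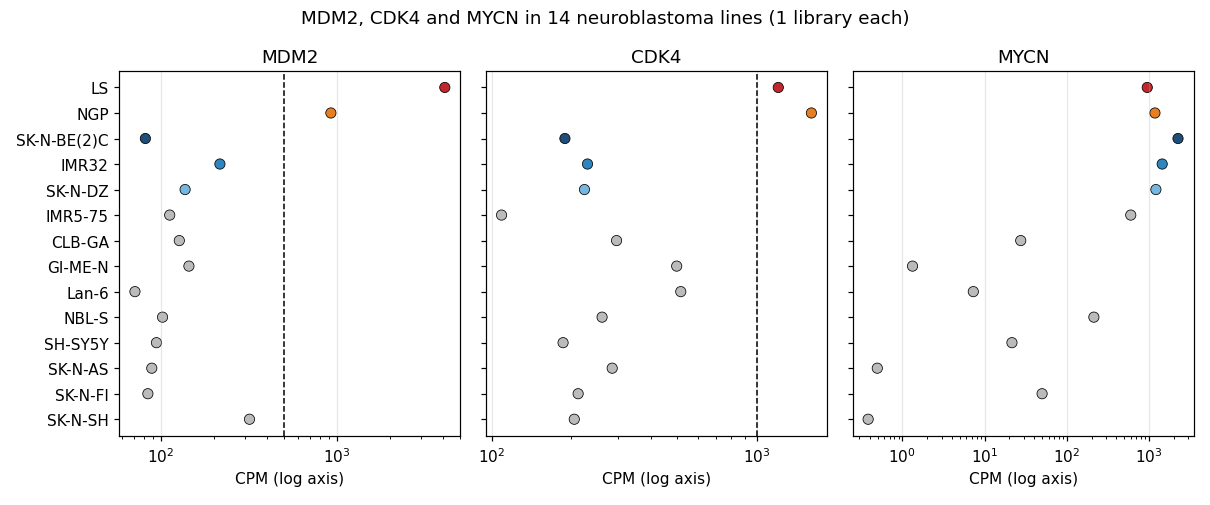
Levels of MDM2, CDK4 and MYCN (CPM, log axes) in the 14 lines, 1 point per library, with LS and NGP in red and orange, the 3 comparison lines in blue and the other lines in grey; dashed lines mark the limits of the rule. MDM2 stands at 4090 and 922 CPM in LS and NGP and at 318 CPM or less elsewhere, while MYCN in the 2 lines lies under that of the 3 comparison lines.

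On 12q, 547 genes reached 5 CPM in at least 1 of the 5 lines. A gene is called raised here when a line held at least 5 CPM and at least 4 times the highest of the 3 comparison lines. In LS 43 genes were raised (7.86%) and in NGP 63 (11.5%), and 23 of them were raised in both (4.20%). Off 12q the same rule gave 1.84% of 12902 genes in LS, 1.81% in NGP and 0.287% in both. Both lines are read against the same 3 comparison lines, so their lists are not independent of each other. The raised 12q genes made up 5.75% of all counts in LS, against 0.171% to 0.271% for the same genes in the comparison lines. In NGP they made up 3.52%, against 0.345% to 0.491%. The raised genes lay in runs rather than singly. A run was taken as at least 5 raised genes with no more than 3 expressed genes that were not raised between neighbours, a definition set after the values were seen.

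The first stretch surrounded CDK4. In LS it ran from GLI1 to ATP23 (chr12:57460135-57959148, GENCODE 29 on GRCh38), 0.499 Mb with 15 of 24 expressed genes raised at a median of 6.12 times the highest comparison line. In NGP it ran from AGAP2 to SLC16A7 (chr12:57723761-59789855), 2.07 Mb with 13 of 13 raised at a median of 7.0 times. The 2 lines shared the part from TSPAN31 to ATP23, and their edges differed. GLI1, the transcription factor of hedgehog signalling, was at 18.5 CPM in LS and 0.619 in NGP, against 0.250 to 0.877 CPM in the comparison lines. OS9, which takes part in the disposal of misfolded proteins, was at 594 CPM in LS and 102 in NGP, against 120 to 124 CPM. Beyond the other edge, SLC16A7, a monocarboxylate transporter, was at 427 CPM in NGP and 10.9 CPM in LS, against 18.6 to 41.1 CPM. So GLI1 and OS9 stood out in LS alone and SLC16A7 in NGP alone.

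Within the shared part, 9 genes were raised in both lines, by 5.2 to 10.6 times the highest comparison line in LS and by 4.08 to 19.4 times in NGP. CTDSP2, a phosphatase of the RNA polymerase II tail, was at 1764 CPM in LS and 1752 CPM in NGP, and at 132, 97.1 and 184 CPM in SK-N-BE(2)C, IMR32 and SK-N-DZ. TSFM, a mitochondrial translation factor, was at 298 and 289 CPM against 33.3, 34.4 and 48.7 CPM. These 2 genes were thus at nearly the same level in both lines. ATP23, a mitochondrial inner membrane protease, was at 174 CPM in NGP and 53.7 CPM in LS, against 4.19 to 8.98 CPM. METTL1, which methylates guanosine in transfer RNA, was at 155 CPM in LS and 99.8 in NGP, against 11.5 to 24.4 CPM. CYP27B1, the enzyme that makes active vitamin D, was at 90.4 and 61.4 CPM against 5.15 to 9.68 CPM. The remaining 4 were CDK4, TSPAN31, EEF1AKMT3 and AVIL. Reads of overlapping genes cannot be told apart without a known strand setting, and this touches CDK4 with TSPAN31 and MARCH9, METTL1 with CYP27B1 and EEF1AKMT3, and TSFM with AVIL.

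The run was not filled evenly in LS. KIF5A, a neuronal kinesin, was at 113 CPM in LS and 126 CPM in NGP, inside or near the 96.3 to 123 CPM of the comparison lines. DDIT3, a transcription factor of the stress response that is amplified with CDK4 in some sarcomas, was at 37.3 CPM in LS and 13.7 in NGP against 4.17 to 24.4 CPM. B4GALNT1, the enzyme that makes the gangliosides GM2 and GD2, was at 491 CPM in LS, 2.86 times the highest comparison line, and at 109 CPM in NGP against 21.3 CPM in SK-N-BE(2)C, 172 CPM in IMR32 and 157 CPM in SK-N-DZ. So B4GALNT1 was above all comparison lines in LS and between them in NGP. LS also held 3 raised genes nearer the centromere, ZBTB39 at 417 CPM, NAB2 at 261 CPM and LRP1 at 932 CPM, the last a large endocytic receptor. In NGP those 3 were at 88.7, 48.6 and 132 CPM and were not raised.

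The second stretch surrounded MDM2, whose start lay 11.1 Mb from that of CDK4. In LS it ran from NUP107 to TSPAN8 (chr12:68686734-71441898), 2.76 Mb with 19 of 21 expressed genes raised at a median of 28.3 times. In NGP it ran from RAP1B to KCNMB4 (chr12:68610839-70434292), 1.82 Mb with 13 of 18 raised at a median of 7.16 times. Here 12 genes were raised in both lines and all 12 were higher in LS, by 15.7 to 88.3 times the highest comparison line against 4.28 to 22.5 times in NGP. In the stretch around CDK4, by contrast, 5 of the 9 shared genes were higher in LS.

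CPSF6, a factor of messenger RNA 3' end formation, was at 15485 CPM in LS and 2336 CPM in NGP, and at 206, 233 and 405 CPM in SK-N-BE(2)C, IMR32 and SK-N-DZ. CCT2, a subunit of the chaperonin that folds actin and tubulin, was at 14131 and 3556 CPM, against 190, 367 and 328 CPM. NUP107, a scaffold nucleoporin, was at 4176 and 1058 CPM against 81.0, 148 and 145 CPM. Each of these had both lines far above all 3 comparison lines. FRS2, the adaptor that links fibroblast growth factor receptors to RAS signalling, was at 3657 CPM in LS and 342 in NGP, against 53.3, 38.4 and 36.3 CPM. YEATS4, a reader of acetylated histones, was at 2383 and 347 CPM against 12.5, 35.9 and 29.8 CPM. CNOT2, a subunit of the deadenylase complex, was at 3552 and 996 CPM against 72.5, 74.1 and 79.1 CPM. These 3 also stood far above the comparison lines in both lines, most of all in LS. The carboxypeptidase M gene, which overlaps the end of MDM2 on the other strand, was at 46.0 and 43.5 CPM, against 1.82 to 1.93 CPM. It and the short transcript AC025423.2 may hold reads of MDM2. KRT8P39, a pseudogene inside NUP107, and C1GALT1P1, a pseudogene, are uncertain for the same reason and for near-identical copies.

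Some genes of this second stretch were raised in LS and not in NGP although raised genes lay on both sides of them. RAB3IP, an exchange factor for RAB8, was at 682 CPM in LS and 22.5 in NGP, against 6.12, 26.3 and 38.7 CPM. LYZ, the lysozyme gene of myeloid and secretory cells, was at 42.1 CPM in LS and 0.888 in NGP, against 0.0455 to 0.125 CPM. MYRFL was at 38.4 CPM in LS and 0.242 in NGP, against 0 to 0.025 CPM, and BEST3, a chloride channel gene, was at 32.6 CPM and 0.565 CPM against 0.424 to 1.43 CPM. All 4 were raised in LS alone. In NGP, LYZ and MYRFL were low but above the 3 comparison lines, and RAB3IP and BEST3 lay among them. RAP1B, a small GTPase at the other edge, was raised in NGP at 544 CPM and was at 265 CPM in LS, 2.60 times the 102 CPM of IMR32. TSPAN8, at the far edge of the LS run, was at 248 CPM in LS, 0.484 CPM in NGP and 21.9 CPM in SK-N-BE(2)C, and at 0.128 CPM or less in IMR32 and SK-N-DZ. Between the 2 stretches, LS alone held MSRB3 at 48.9 CPM and HMGA2, an oncofetal chromatin protein, at 90.8 CPM, against 1.02 CPM or less in the other 4 lines for both. HMGA2 reached 1122 CPM in GI-ME-N, so a level of this size was not particular to a line with raised MDM2.

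**Figure D2:**
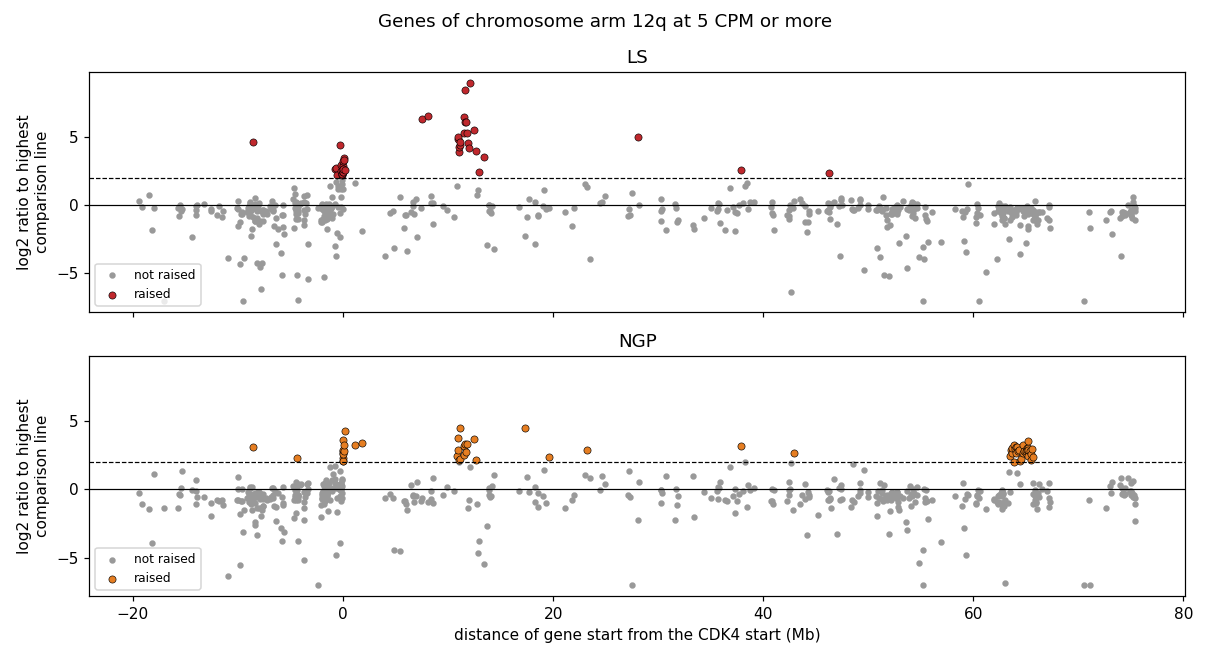
Each point is a 12q gene at 5 CPM or more, placed by the distance of its start from the CDK4 start (Mb) and by the log2 ratio of its level in LS (top) or NGP (bottom) to the highest of the 3 comparison lines; coloured points are raised, the dashed line marks the ratio of 4. Both lines show a group of raised genes at CDK4 and another 11.1 Mb away at MDM2, and NGP alone shows a further group 63.5 Mb from CDK4.

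The third stretch was seen in NGP alone. It ran from CAMKK2 to KMT5A (chr12:121237691-123409358), 2.17 Mb with 30 of 32 expressed genes raised at a median of 6.96 times the highest comparison line and a range of 4.03 to 11.3 times. All 30 were higher in NGP than in each of the other 13 lines, and all 30 were lower in LS than in the highest comparison line (median 0.702 times). KNTC1, a protein of the kinetochore checkpoint, was at 2093 CPM in NGP, 176 CPM in LS, and 143, 139 and 310 CPM in SK-N-BE(2)C, IMR32 and SK-N-DZ. ANAPC5, a subunit of the anaphase-promoting complex, was at 1993 CPM in NGP and 192 CPM in LS, against 213, 211 and 275 CPM. KDM2B, a histone demethylase that recruits a Polycomb complex to CpG islands, was at 843 CPM in NGP and 65.5 CPM in LS, against 55.7 to 104 CPM. These 3 show the pattern of the whole stretch: 1 line high and the other 4 far below it. SETD1B, a histone H3 lysine methyltransferase, was at 383 CPM against 41.0 to 62.0 CPM, and KMT5A, which methylates histone H4, was at 369 CPM against 54.6 to 72.7 CPM. ORAI1, the pore of the store-operated calcium channel, was at 97.1 CPM against 8.23 to 10.2 CPM. PITPNM2, a phosphatidylinositol transfer protein, had the highest ratio, at 238 CPM in NGP against 6.81 to 21.0 CPM, with 7.28 CPM in LS.

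Single raised genes lay elsewhere on the arm. TUBA1C, an alpha tubulin gene with near-identical relatives among which reads may be split, was at 248 CPM in LS and 85.8 in NGP against 6.46 to 10.1 CPM, and at 1686 CPM in GI-ME-N. NTN4, a secreted netrin of basement membranes, was at 14.7 and 21.9 CPM against 0.0683 to 2.50 CPM, and at 8.31 CPM in IMR5-75. Of the 23 genes raised in both lines, 21 were higher in LS and NGP than in every one of the other 12 lines; the exceptions were TUBA1C and the carboxypeptidase M gene, at 76.7 CPM in SK-N-SH. Of the 23, 13 overlap another gene of the table on the genome.

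**Figure D3:**
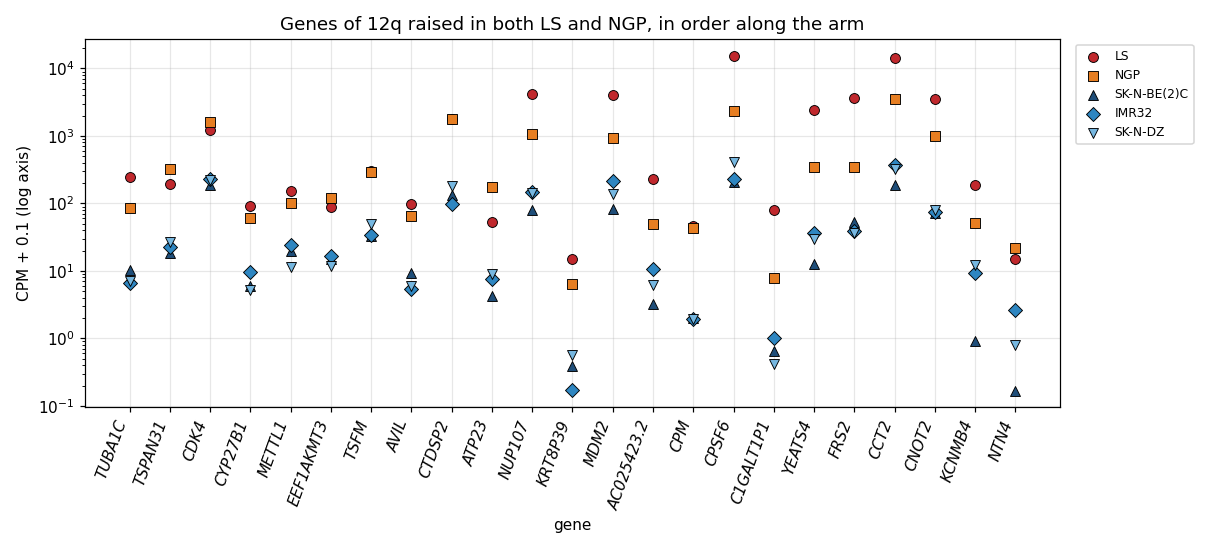
Level (CPM plus 0.1, log axis) of the 23 genes of 12q raised in both lines, in their order along the arm, with 1 point per line. LS (circles) and NGP (squares) lie above the 3 comparison lines for every gene because the genes were chosen so, and LS exceeds NGP for all 12 genes from NUP107 to KCNMB4.

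No gene, on 12q or outside it, passed edgeR's quasi-likelihood test at an adjusted p under 0.05: 0 of 17757 genes tested (0%), with a smallest adjusted p of 0.248. The 665 genes tested on 12q, with the raised runs among them, were part of this fit. The lines were chosen by MDM2 and CDK4, so the outcome is not read as a result for 12q. A gene that failed the test is not shown to be at a like level in the 2 groups. At an unadjusted p under 0.05 there were 879 genes in all. Of the 17092 tested outside 12q these were 449 higher in LS and NGP (2.63%) and 358 lower (2.09%). DESeq2, a second tool for counts, called 163 genes outside 12q higher (0.936%) and 134 lower (0.769%) at its own adjusted p under 0.05. It also called 35 genes on 12q, which are not read as a result for the same reason. Levels of LS and NGP were both above all 3 comparison lines for 1766 genes (10.3%) and both below for 1809 (10.6%). An exact permutation of 2 lines against 3 has 10 arrangements and cannot give a 2-sided p below 0.2, so for single genes the values are given. The median log2 difference over all genes tested was -0.03. In the following, a log2 difference is the level in LS and NGP minus that in the 3 comparison lines, fitted by edgeR, and none of the genes named passed its test. The 15 higher and 15 lower genes with groups apart, a mean of at least 5 CPM and the smallest p, described first, were all called by DESeq2, with adjusted p-values of 9.38e-38 to 0.000133, so their calls depend on the tool. For each list, a count of genes with groups apart is to be read beside the 10.3% (higher) and 10.6% (lower) of all genes outside 12q. A count of DESeq2 calls is to be read beside the 0.936% (higher) and 0.769% (lower) that DESeq2 called outside 12q.

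Off 12q, 37 genes were raised at least 4 times over the highest comparison line in both lines (0.287% of 12902), and 17 were at least 4 times below the lowest comparison line in both (0.132%). The 37 were spread over 18 chromosomes and an unplaced scaffold, with at most 5 on any chromosome. For 20 of the 37, IMR5-75 was less than 4 times below the lower of LS and NGP, or above it, and for 9 of them it was at or above the lower of the 2. IMR5-75 comes from IMR32, a comparison line, and its own MDM2 was 112 CPM and its CDK4 109 CPM. For those 9 genes a level like that of LS or NGP was thus also found in a line with low MDM2 and CDK4. Further lines with low MDM2 and CDK4 reached such levels too, among them SK-N-SH with 1081 CPM of IGFBP5 and GI-ME-N with 9100 CPM of COL1A1. Other genes were not reached, such as SEC16B and POU4F1, at 10.0 and 4.64 CPM or less in the other 8 lines.

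Among transcription factors, POU4F1, known from sensory neurons, was at 33.9 CPM in LS and 87.4 CPM in NGP, and at 0.615, 0.973 and 1.97 CPM in SK-N-BE(2)C, IMR32 and SK-N-DZ (log2 difference 5.67, SE 0.75, edgeR adjusted p = 0.460). It was at 5.74 CPM in IMR5-75 and at 4.64 CPM or less in the other 8 lines, so LS and NGP held the highest levels of the series. FOXF1, a factor of visceral mesoderm, had 1834 counts in LS (31.4 CPM) and 172 counts in NGP (4.63 CPM), but 1, 0 and 0 counts in the comparison lines. PRRX1, a homeobox factor of mesenchyme, was at 86.0 and 91.1 CPM against 0.205, 0.025 and 0.470 CPM (log2 difference 8.54, SE 1.09, edgeR adjusted p = 0.434), yet IMR5-75 held 112 CPM and SK-N-SH 1413 CPM. PRRX1 is thus an example of a gene in which the subclone sided with LS and NGP and its parent line did not.

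SEC16B, a protein of endoplasmic reticulum exit sites, had the smallest p among the genes higher in the 2 lines. It was at 20.1 CPM in LS and 24.3 CPM in NGP, and at 0.205, 0.250 and 0.171 CPM in the comparison lines (log2 difference 6.72, SE 0.56, edgeR adjusted p = 0.248), with 0.133 CPM in IMR5-75. EPHA4, an ephrin receptor, was at 17.8 and 12 CPM against 0.150 to 0.399 CPM, but at 14.8 CPM in IMR5-75. GAD1, which makes the transmitter GABA, was at 3.96 CPM in LS and 31.8 in NGP against 0.0683 to 0.250 CPM, with 2.41 CPM in IMR5-75. PPFIA4, a liprin, was at 52.6 and 94.9 CPM against 3.53 to 10.1 CPM, and at 108 CPM in IMR5-75. H6PD, an enzyme that makes NADPH in the endoplasmic reticulum, was at 74.9 and 79.2 CPM against 9.86 to 19.5 CPM. PCDH20, a protocadherin, was at 18.1 and 25.3 CPM against 1.96 to 3.95 CPM, and IMR5-75 had no count. Among the other 8 lines GAD1 reached 24.8 CPM (SK-N-FI), H6PD 212 CPM (SK-N-SH) and PCDH20 27.0 CPM (CLB-GA). SEC16B, EPHA4 and PPFIA4 stayed at 10.0, 10.1 and 33.6 CPM or less there. Of these 6 genes, SEC16B and PCDH20 kept IMR5-75 below the comparison lines' highest level, and EPHA4 and PPFIA4 placed it with LS and NGP.

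Of the other named higher genes, COL18A1, a basement membrane collagen, was at 125 CPM in LS and 134 CPM in NGP, and at 11, 16.1 and 3.87 CPM in SK-N-BE(2)C, IMR32 and SK-N-DZ. P4HA1, a prolyl hydroxylase of collagen, was at 41.2 and 48.3 CPM against 12.9, 14.4 and 13.9 CPM. ADAMTS5, a protease of proteoglycans, was at 22.5 and 11 CPM against 0.724 to 1.46 CPM, FREM1, a basement membrane protein, at 28.5 and 12.8 CPM against 0.319 to 1.45 CPM, and IGFBP5, which binds insulin-like growth factors, at 252 and 391 CPM against 19.9 to 56.5 CPM. The groups did not overlap for any of the 5, by the rule that named them. IMR5-75 was at 44.1 CPM for COL18A1, 18.4 CPM for P4HA1, 15.2 CPM for ADAMTS5, 0.244 CPM for FREM1 and 6.45 CPM for IGFBP5, so only ADAMTS5 lay between LS and NGP there. The remaining higher gene, AC004556.1, lies on an unplaced scaffold and was at 17.6 and 11.1 CPM against 0.0749 CPM or less.

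Among the 15 named lower genes, B3GALNT1, the globoside synthase, had the smallest p. It was at 0.154 CPM in LS (9 counts) and 0.0807 CPM in NGP (3 counts), and at 85.5, 85.1 and 46.4 CPM in SK-N-BE(2)C, IMR32 and SK-N-DZ (log2 difference -9.20, SE 0.67, edgeR adjusted p = 0.248), with 22 CPM in IMR5-75. MYD88, the adaptor of Toll-like and interleukin-1 receptors, was at 0.720 and 0.377 CPM against 17.8, 25.8 and 13.4 CPM. IMR5-75 was at 0.554 CPM for MYD88, the other 8 lines at 20.6 to 58.4 CPM. So LS, NGP and IMR5-75 held the 3 lowest MYD88 levels of the 14 lines. TRIM14, a ubiquitin ligase family member of antiviral signalling, was at 2.06 and 1.10 CPM against 108, 26.2 and 47.7 CPM, and at 1.28 CPM in IMR5-75, with 12.8 CPM or more in the other 8 lines. The same 3 lines were again the lowest of the series.

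Of the other named lower genes, SCN3B, a sodium channel subunit, was at 10.5 CPM in LS and 33.3 in NGP against 248, 206 and 238 CPM. DPP6, a partner of potassium channels, was at 11.1 and 16.5 CPM against 103, 67.1 and 61.5 CPM, and MYO5A, a myosin that carries vesicles, at 8.88 and 15 CPM against 104, 54.3 and 91.5 CPM. P2RX5, an ATP-gated channel, was at 0.343 and 0.780 CPM against 10.8 to 38.2 CPM, and SLC35F1 at 0.154 and 0.457 CPM against 10.5 to 30.5 CPM, with 36.0 CPM in IMR5-75. In each of these 5 both lines lay below all 3 comparison lines. Low levels were not particular to LS and NGP. The other 8 lines held 0.0310 to 1.46 CPM of SLC35F1 and 0 to 5.80 CPM of P2RX5. Their levels ran from 0.558 to 177 CPM for SCN3B, 0.137 to 240 CPM for DPP6 and 3.33 to 122 CPM for MYO5A. GRK3, a kinase that desensitises receptors, was at 78.5 and 70.5 CPM against 239 to 299 CPM. CNGB1 was at 2.79 and 1.24 CPM against 23.0 to 45.6 CPM, ZNF844 at 2.76 and 3.58 CPM against 19.3 to 30.6 CPM, ECE2 at 0.0343 and 0.0269 CPM against 2.24 to 13.8 CPM, and C1QL1 at 6.82 and 5.94 CPM against 29.2 to 48.3 CPM. For GRK3, CNGB1, ZNF844, ECE2 and C1QL1 too, the lowest of the other 8 lines was below both LS and NGP. NOMO3 has near-identical copies, so its 27.5 and 21.1 CPM against 83.7 to 159 CPM are uncertain. Of all 30 named genes, 11 overlapped between the groups once IMR5-75 joined the comparison lines: EPHA4, PRRX1, ADAMTS5 and PPFIA4 among the higher, and TH, MYD88, ECE2, TRIM14, MYO5A, CNGB1 and ZNF844 among the lower.

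**Figure D4:**
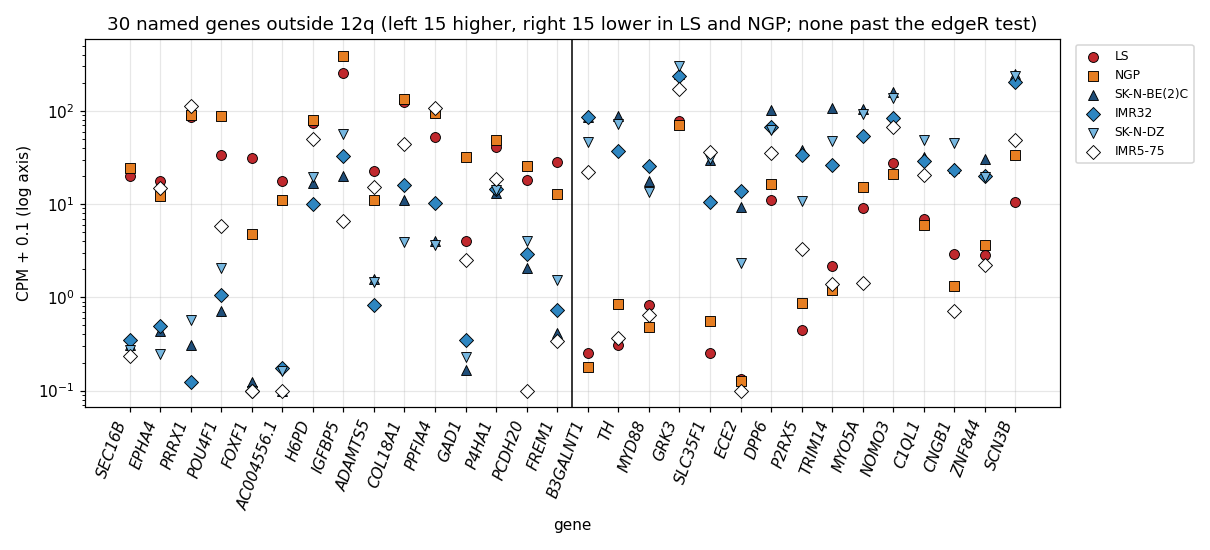
Level (CPM plus 0.1, log axis) of the 30 named genes outside 12q, with 1 point per line and IMR5-75 as open diamonds. LS and NGP lie on 1 side of the 3 comparison lines for every gene because this was part of the rule; the open diamond reaches their levels for 11 genes, among them PRRX1 at 112 CPM and MYD88 at 0.554 CPM.

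MDM2 restrains p53, so the targets of p53, which act in cell cycle arrest, DNA repair and apoptosis, were described as a list. Of 32 listed targets 31 were tested outside 12q, and none passed edgeR's test. Their log2 differences were positive for 6 and negative for 25, with a median of -0.33 beside -0.03 for all genes. Groups did not overlap for 2 in the higher direction and 5 in the lower, 7 of 31, beside 10.3% and 10.6% of all genes outside 12q. Among the 3 comparison lines IMR32 stood out: it held the highest of the 5 levels for 16 of the 31 genes, and SK-N-BE(2)C the lowest for 12. NGP was the lowest for 8 and LS for 6. Without IMR32 the list's median was 0.05, and without SK-N-BE(2)C it was -0.58.

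CDKN1A, the cyclin-dependent kinase inhibitor p21, was at 8.91 CPM in LS and 84.1 CPM in NGP, and at 17.3 CPM in SK-N-BE(2)C, 306 CPM in IMR32 and 56.8 CPM in SK-N-DZ. The 2 lines with high MDM2 thus lay on opposite sides of 2 of the 3 comparison lines. AEN, an exonuclease of apoptosis, was at 40.1 and 47.9 CPM against 68.7, 161 and 134 CPM (log2 difference -1.46, SE 0.44, edgeR adjusted p = 0.913). SESN1, an inhibitor of mTORC1 signalling, was at 20.2 and 18.4 CPM against 39.9, 38.8 and 29.8 CPM, and BBC3, the BH3-only protein PUMA, at 9.34 and 8.58 CPM against 18.4, 13.4 and 13.7 CPM. POLH and PLK3 were the other 2 targets with both lines below, POLH by as little as 25.7 CPM in LS against 25.9 CPM in SK-N-BE(2)C. In the other direction, TP53I3, a quinone oxidoreductase, was at 61.1 and 37.0 CPM against 18.4, 33.1 and 12.1 CPM. CCNG1, cyclin G1, was at 122 and 159 CPM against 29.1, 115 and 88.5 CPM. The targets therefore did not lie on 1 side in LS and NGP. BAX was at 40.1 and 41.2 CPM, between the 24.9 CPM of SK-N-BE(2)C and the 80.0 CPM of IMR32, and GADD45A at 21.7 and 36.3 CPM, between 8.24 and 55.7 CPM.

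**Figure D5:**
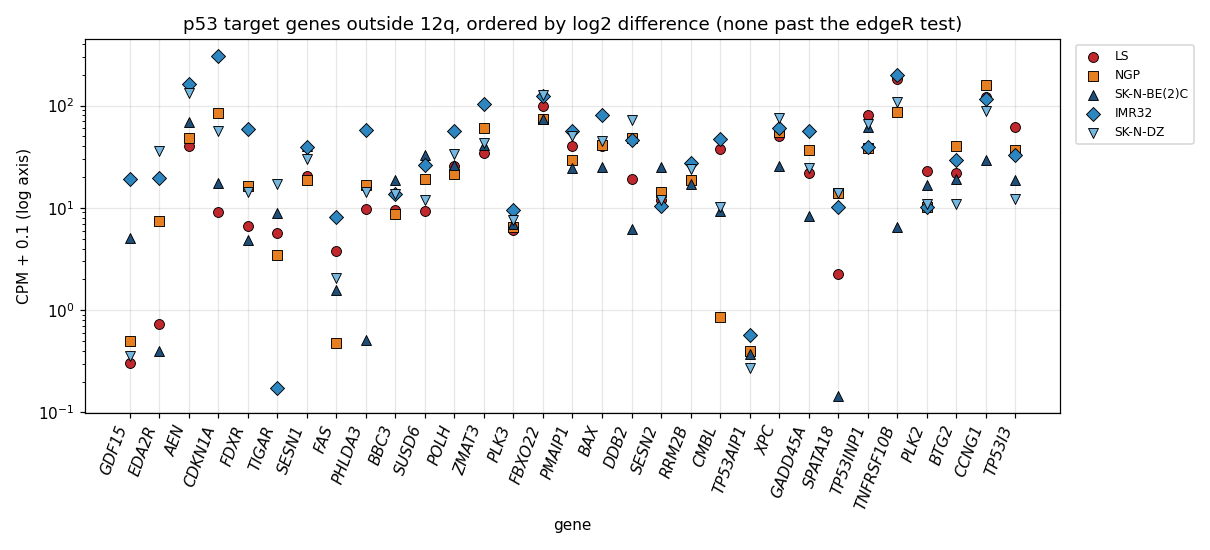
Level (CPM plus 0.1, log axis) of the 31 p53 target genes outside 12q, ordered by log2 difference, with 1 point per line. The groups overlap for 24 of the genes; CDKN1A spans 8.91 CPM in LS to 306 CPM in IMR32.

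Of 8 regulators of p53, MDM4, the relative of MDM2 that also binds p53, was at 277 CPM in LS and 294 in NGP against 169, 234 and 135 CPM, and at 309 CPM in IMR5-75. CDKN2A, whose locus encodes both the CDK4 inhibitor p16 and the MDM2 inhibitor ARF, was at 95.5 and 54.9 CPM against 25.5, 0.250 and 18.6 CPM (log2 difference 2.35, SE 1.47, edgeR adjusted p = 0.927). The table does not split the 2 products. LS was above every other line of the series for CDKN2A, the highest of the other 8 being at 56.3 CPM. TP53BP1, a DNA damage response protein that binds p53, was at 95.8 and 120 CPM against 235, 238 and 162 CPM.

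Of the 18 tested G1 genes outside 12q none passed; 2 lay above all comparison lines and 4 below, beside 10.3% and 10.6% of all genes outside 12q, with a median log2 difference of -0.35, which was 0.04 without NGP, -0.08 without IMR32, -0.55 without LS and -0.53 without SK-N-BE(2)C. CDK6, the paralog of CDK4 that shares its cyclins, was at 290 CPM in LS and 207 in NGP, against 631 CPM in SK-N-BE(2)C, 382 CPM in IMR32 and 706 CPM in SK-N-DZ (log2 difference -1.21, SE 0.41, edgeR adjusted p = 0.913). Both lines lay below the 3 comparison lines, and IMR5-75 at 385 CPM lay above the lowest of these. The other 8 lines held 118 to 660 CPM of CDK6, with a median of 257 CPM, so low levels were not particular to LS and NGP. CCND1, the D-type cyclin of these cells, was at 1757 CPM in LS and 467 CPM in NGP, above and below the 612 to 1272 CPM of the comparison lines. RB1 was at 79.5 and 44.8 CPM against 63.4 to 87.8 CPM. CDKN2C, another CDK4 inhibitor, was at 67.4 CPM in LS and 9.25 in NGP, against 37.9, 232 and 44.2 CPM. CDK2, which lies on 12q outside the raised runs, was at 58.4 and 72.1 CPM against 31.5 to 80.7 CPM.

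Genes that E2F factors switch on for DNA replication were not set apart. Of 18 tested none passed, none lay above all comparison lines and 2 lay below (10.6% of all genes), with a median log2 difference of -0.34 (-0.07 without SK-N-DZ, -0.20 without IMR32). MCM5, a subunit of the replicative helicase, was at 90.0 and 83.0 CPM against 124, 92.0 and 130 CPM, and TK1, thymidine kinase, at 33.9 and 35.0 CPM against 41.5, 104 and 64.9 CPM. SK-N-DZ held the highest level of the 5 lines for 13 of the 18 and SK-N-BE(2)C the lowest for 10, so the spread among the comparison lines enclosed LS and NGP for most. Of 10 mitosis genes only MKI67, a marker of cycling cells, had groups apart, at 421 and 183 CPM against 438, 588 and 638 CPM, with LS close to SK-N-BE(2)C. The median of the 10 was -0.20, which was 0.31 without SK-N-DZ and -0.51 without SK-N-BE(2)C.

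The neighbours of MYCN differed in RNA level between the lines, and their copy number was not measured. DDX1, an RNA helicase gene next to MYCN that is often amplified with it, was at 175 CPM in LS and 227 CPM in NGP, and at 229 CPM in SK-N-BE(2)C, 7796 CPM in IMR32 and 9754 CPM in SK-N-DZ. NBAS, beyond DDX1, was at 72.5 and 131 CPM against 78.0, 2282 and 568 CPM. For both genes the high levels were those of IMR32 and SK-N-DZ, and SK-N-BE(2)C was at the level of LS and NGP. FAM49A, on the other side of MYCN, was at 587 CPM in NGP and at 8.51 CPM or less in the other 4 lines, with 4.01 CPM in LS. In DESeq2 DDX1 and FAM49A had adjusted p-values of 0.0154 and 0.0126, and edgeR's were 0.913 for both. Of 11 MYC-responsive genes tested outside 12q, NPM1, a nucleolar chaperone, was at 2097 and 1615 CPM against 978, 1082 and 1362 CPM, and FBL, the nucleolar methyltransferase fibrillarin, at 203 and 283 CPM against 84.2, 126 and 179 CPM. With MTHFD2, a mitochondrial folate enzyme, at 255 and 274 CPM against 149, 205 and 201 CPM, these were the 3 of 11 with groups apart, all higher, beside 10.3% of all genes outside 12q. The list's median log2 difference was 0.26, and -0.23 without LS.

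Adrenergic markers, the genes of the sympathoadrenal state of neuroblastoma cells, had a median log2 difference of -1.47 over 17 genes tested outside 12q, with 4 positive and 13 negative and none past edgeR's test. DESeq2 called 2 of them, TH and DBH, at adjusted p-values of 5.23e-16 and 0.000162, beside 0.769% of all genes outside 12q called lower. TH, the first enzyme of catecholamine synthesis, was at 0.206 CPM in LS and 0.753 CPM in NGP, and at 87.8, 36.6 and 71.4 CPM in SK-N-BE(2)C, IMR32 and SK-N-DZ (log2 difference -7.11, SE 0.92, edgeR adjusted p = 0.434). IMR5-75 was at 0.266 CPM for TH, at the level of LS and NGP. So were SK-N-SH, SK-N-AS, SH-SY5Y and GI-ME-N, at 0 to 0.651 CPM, while CLB-GA held 765 CPM. DBH, which turns dopamine into noradrenaline, was at 1.10 and 2.15 CPM against 270, 5.64 and 236 CPM, with IMR32 close to NGP. ISL1, PHOX2A and CHGA completed the 5 of 17 genes with groups apart, all lower, beside 10.6% of all genes outside 12q. ISL1 was at 27.9 and 38.9 CPM against 112, 69.3 and 74.0 CPM. LS held the lowest of the 5 levels for 12 of the 17 genes. GATA3, a transcription factor of the state, was split between them, at 21.9 CPM in LS and 273 in NGP against 108, 189 and 260 CPM. The list's median was -4.52 without NGP and -0.77 without SK-N-BE(2)C.

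Mesenchymal markers had a median log2 difference of 1.57 over 15 genes, with 12 positive, 3 negative and none past edgeR's test. DESeq2 called 1 of them, PRRX1, beside 0.936% of all genes outside 12q called higher. Here too LS and NGP differed from each other. LS held the highest of the 5 levels for 9 of the 15 and NGP for 3, and without LS the list's median was 0.05. VIM, the intermediate filament vimentin, was at 1470 CPM in LS and 119 in NGP, against 34.2, 148 and 79.0 CPM. YAP1, an effector of the Hippo pathway, was at 88.3 and 0.161 CPM against 3.49 to 5.45 CPM, and IFI16, a DNA sensor, at 290 and 0.269 CPM against 1.54 to 23.7 CPM. In these 3 LS alone was above the comparison lines. TGFBR2, a receptor of transforming growth factor beta, and FOSL1, at 0.257 and 0.269 CPM near the limit of detection, were with PRRX1 the 3 of 15 with groups apart, all higher, beside 10.3% of all genes outside 12q. In bulk RNA, a larger share of cells in this state and more RNA per cell cannot be told apart.

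Some fibroblast markers were high in the same lines. COL1A1, the main chain of type I collagen, was at 332 CPM in LS and 271 CPM in NGP, and at 0.387, 8.61 and 4.79 CPM in SK-N-BE(2)C, IMR32 and SK-N-DZ (log2 difference 6.04, SE 1.23, edgeR adjusted p = 0.734). Levels of COL1A1 were far higher in GI-ME-N (9100 CPM) and SK-N-SH (8734 CPM). COL3A1 was at 310 and 21.7 CPM against 0.273, 4.07 and 15.5 CPM. The other members did not share that pattern: COL1A2, the partner chain of COL1A1, was at 4.71 and 1.40 CPM against 0.888 to 1.73 CPM, FAP at 0.0343 and 0.0269 CPM against 0.0641 CPM or less, DCN at 3.03 and 2.39 CPM against 0.941 to 9.97 CPM, and THY1 at 38.4 and 35.7 CPM against 59.6 to 245 CPM. The summed level of the 8 markers was 741 CPM in LS, 402 CPM in NGP and 87.0 to 326 CPM in the comparison lines. Of the 5 members tested outside 12q, COL1A1 and COL3A1 had groups apart in the higher direction and THY1 in the lower, beside 10.3% and 10.6% of all genes. DESeq2 called COL1A1 alone of these, at an adjusted p of 5.32e-05, beside 0.936% of all genes outside 12q called higher. The 8 leukocyte markers summed to 47.8 CPM in LS, of which 42.1 CPM were LYZ from 12q, to 10.7 CPM in NGP and to 5.76 to 6.63 CPM in the comparison lines. CD68, a lysosomal protein of macrophages and other cells, was at 2.97 and 7.24 CPM against 1.43 to 3.74 CPM. PTPRC, the pan-leukocyte antigen CD45, was at 1.42 and 1.96 CPM against 0.823 to 2.91 CPM. CD14 was at 0.898 CPM or less, NKG7 at 0.394 CPM or less, ITGAM at 0.175 CPM or less and CD3E at 0.0683 CPM or less in all 5 lines. The endothelial markers summed to 7.03 and 3.95 CPM against 2.09 to 6.46 CPM and the Schwann cell markers to 3.53 and 3.77 CPM against 4.64 to 8.08 CPM. The part of other cells in the collagen levels was not tested.

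Receptors gave 3 genes of 13 above all comparison lines, beside 10.3% of all genes outside 12q, and none passed edgeR's test. PDGFRA, a receptor of platelet-derived growth factor, was at 91.0 CPM in LS and 263 CPM in NGP, and at 0.364, 6.91 and 14.5 CPM in SK-N-BE(2)C, IMR32 and SK-N-DZ (log2 difference 4.61, SE 1.39, edgeR adjusted p = 0.913, DESeq2 adjusted p = 0.0324), with 29.4 CPM in IMR5-75. SK-N-SH held 158 CPM of PDGFRA and SH-SY5Y 150 CPM. FGFR1, whose signal passes through the 12q adaptor FRS2, was at 142 and 147 CPM against 65.7, 106 and 52.0 CPM. FGFR2 was at 49.7 CPM in LS and 19.9 in NGP against 0.364, 5.66 and 19.2 CPM, NGP and SK-N-DZ being nearly equal. EGFR, the epidermal growth factor receptor, was lower in both lines, at 37.7 and 6.38 CPM against 136, 61.7 and 63.8 CPM. ALK was at 47.6 and 20.6 CPM against 39.9, 167 and 76.1 CPM, with overlapping groups.

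Among the BCL2 family, BCL2, the inhibitor of apoptosis, was at 28.1 CPM in LS and 21.5 in NGP against 116, 92.8 and 40.7 CPM (log2 difference -1.75, SE 0.53, edgeR adjusted p = 0.913), and at 49.5 CPM in IMR5-75. It was the only one of 9 tested members outside 12q with groups apart. HRK, a BH3-only protein encoded on 12q outside the raised runs, was at 9.63 and 8.26 CPM, below the 15.8, 54.2 and 58.9 CPM of the comparison lines. So a position on 12q did not by itself go with a high level. MCL1 was at 408 and 197 CPM against 212 to 262 CPM.

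Of 13 genes of MHC class I antigen presentation, 1, ERAP2, had groups apart, and the median log2 difference was -0.38, which was 0.88 without SK-N-BE(2)C and -0.95 without LS. B2M, the light chain of class I molecules, was at 146 and 101 CPM against 314, 166 and 90.8 CPM, with the highest level in SK-N-BE(2)C. Of 14 interferon-stimulated genes outside 12q, 4 had groups apart, all higher and beside 10.3% of all genes outside 12q: IFI6, MX2, IFI44L and USP18. DESeq2 called 2 of them, IFI44L and USP18, at adjusted p-values of 0.0412 and 0.0393, and edgeR none. Of all genes outside 12q DESeq2 called 0.936% higher. MX2 was apart by little, at 4.92 and 5.11 CPM against 3.98 to 4.62 CPM. USP18, a protease that removes ISG15, was at 7.75 and 2.58 CPM against 0.228, 0.823 and 0.834 CPM, and at 20.7 CPM in IMR5-75, while IFI44L was at 29.8 CPM in LS and 1.24 in NGP against 0.797 to 1.07 CPM. Telomerase and shelterin genes had a median of -0.11 over 12 genes, between -0.34 and -0.03 without 1 line. TERT, the catalytic subunit, was at 4.85 CPM in LS and 20.6 in NGP against 0.728, 4.82 and 4.72 CPM, LS, IMR32 and SK-N-DZ being nearly equal. DKC1, the pseudouridine synthase dyskerin, was at 132 and 130 CPM against 148 to 192 CPM, and TINF2, the shelterin subunit TIN2, at 13.9 and 19.1 CPM against 24.5 to 30.2 CPM. These 3 of 12 were the ones with groups apart, TERT higher and the other two lower. Ganglioside synthesis had 6 genes outside 12q, all with a negative difference and a median of -0.59, which was -0.38 without IMR32, -0.32 with IMR5-75 in its place and -0.18 in limma. B4GALT5 alone had groups apart, at 125 and 74.0 CPM against 128 to 221 CPM. The oncofetal and let-7 genes had 8, with a median of 0.19 (-0.18 to 0.59 without 1 line) and no gene with groups apart. LIN28B, the repressor of let-7, was at 50 and 62.5 CPM against 37.1 to 128 CPM.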

How the data were processed

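RNA was extracted with TRIzol and TruSeq libraries were prepared, per the labels' protocols. Per the submitters' processing notes the tools were kallisto 0.44.0 and DESeq2 1.48.2 and the build was GRCh38. No strand setting and no gene annotation is given in the sources used here. Main input was the table of estimated counts per gene deposited by the authors, which holds whole numbers. The authors' deposited log2 values, made by a variance-stabilising transform of unstated settings, served only as an alternative.

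The members, the 20 gene lists and the rules were chosen with earlier results of these data known. Counts were scaled with TMM factors over all 14 lines and tested in edgeR 4.0.16 (R 4.3.3) by the quasi-likelihood test on the 5 lines, after a filter on low counts, with Benjamini-Hochberg adjustment over all genes. The test was also tried on simulated counts, and that trial is not used here as evidence of its power. With 1 library per line, p-values rest on differences among lines of a group. Of 20049 symbols, 19856 (99%) matched a GENCODE 29 gene. Named genes were list members, MDM2 and CDK4; on 12q the genes raised in both lines, the 10 highest ratios of each line and the ends of runs; outside 12q, since none passed, 15 genes per direction with groups apart, a mean of at least 5 CPM and the smallest p. Genes named beyond the rule, such as OS9, KNTC1 and KIF5A, were chosen after their values were seen. DESeq2 1.42.0 and limma 3.58.1 were the other tests. Values of a few listed genes are not reported here.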

Additional observations from a re-analysis of the deposited data

How the results depend on the processing

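No gene outside 12q was called by edgeR with DESeq2 size factors, with no filter, with IMR5-75 in place of or beside IMR32, or without any 1 line (0 in each), nor by limma on the deposited log2 values. DESeq2 called 163 higher and 134 lower, and gave 804 higher and 873 lower at an unadjusted p under 0.05, against 404 to 493 and 319 to 468 in edgeR without 1 line; the cause was not tested. With IMR5-75 added, groups were apart for 1051 higher and 1077 lower genes, and with 1 line left out, fewer lines having to separate, for 2765 to 4415 and 2858 to 4374. All 30 named genes kept their direction in all 11 alternatives. They were picked with groups apart in these same lines, so leaving 1 line out could not reverse it, and the kept direction is no support. All 30 were past the threshold in DESeq2. None was in limma, or in edgeR with DESeq2 size factors, with no filter, with IMR5-75 or without 1 comparison line. At a ratio of 8, 26 genes of 12q were raised in LS, 22 in NGP and 8 in both; against the highest of all other 12 lines, 24, 37 and 13; without 1 comparison line, 47 to 52, 66 to 72 and 24 to 26.

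List medians (log2) kept within the spread between lines of a group in most alternatives. Those that left it were the leukocyte markers (-0.02 in DESeq2, 0.09 in limma, 0.00 with no filter, -0.18 with IMR5-75 in place of IMR32, 0.02 with it added), the p53 regulators (-0.09 in limma, 0.07 with IMR5-75 in place, -0.07 with it added), the receptors (0.49) and the BCL2 family (0.00), both with IMR5-75 in place of IMR32. Without 1 line, the median ranged from -0.44 to -0.07 for p53 regulators, -0.23 to 0.37 for MYC-responsive genes, -4.52 to -0.77 for adrenergic markers, 0.05 to 2.10 for mesenchymal markers, -0.99 to 0.08 for receptors, -0.34 to -0.03 for telomerase and shelterin, -0.09 to 0.42 for leukocyte markers and -1.46 to 0.16 for Schwann cell markers; the cause was not tested.

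No paired analysis was possible because the labels give no replicate numbers. Levels near 3 counts, such as those of B3GALNT1 and ECE2 in LS and NGP, hold counting error.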
